A study of Mus musculus with 6 samples.

Results

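The mitochondrial ribosomal protein genes were followed across clear cells taken from the caput, the corpus and the cauda of the mouse epididymis. Members were all genes of the deposited table whose symbol is Mrpl or Mrps followed by a number and at most 1 letter, which gave 76 genes of the 37578 listed. Of these, 49 belong to the large subunit, 26 to the small subunit, and 1, Mrps36, to neither, since its product is now known as a component of the 2-oxoglutarate dehydrogenase complex. Mrps30 and Mrps18a carry small-subunit symbols but their proteins sit in the large subunit, and they were counted there. The choice of members used symbols only, not measured values.

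All libraries came from mice aged 12 weeks that carry a transgene in which the ATP6V1B1 promoter drives EGFP (labelled B1 V ATPase - EGFP), and no treatment was given. EGFP-positive cells were sorted in 2 rounds, and each library pooled cells from 12 epididymides. There were 2 libraries each for caput, corpus and cauda. The groups thus share age and transgene and differ in the region, and any cell in which that promoter is active could pass the gate. Nothing in the labels states that both pools of a region came from separate mice, so p-values reflect only how far these libraries differ, which may be technical.

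Mitochondria carry their own ribosome, which translates the few proteins encoded in mitochondrial DNA, all of them subunits of the oxidative phosphorylation complexes. Its ribosomal RNAs are transcribed in the mitochondrion, whereas all of its proteins are encoded in the nucleus, made in the cytosol and imported. Some of these proteins descend from bacterial ribosomal proteins and others were added in mitochondria. Clear cells are the proton-secreting cells of the epididymal epithelium, rich in mitochondria, and acidify the lumen in which sperm mature and are stored.

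Promoters are shown for 4 members at the ends of the range described here: Mrpl17, Mrpl30 and Mrps25 had the largest called differences between caput and cauda, and Mrpl37 the largest in the opposite direction. Each line gives the 250 bases upstream of the transcription start, 5′ to 3′ on the gene's strand, from RefSeq promoter windows on GRCm38.p6. Capitals mark matches to the 3 motifs searched on both strands: CCGGAAG for the ETS family, GCGCANGCG for NRF1 and AANATGGCG for YY1, factors known from promoters of nuclear genes for mitochondrial proteins. The windows lie at chr7:105811088-105811337 (minus strand) for Mrpl17, chr1:37890227-37890476 (plus strand) for Mrpl30, chr6:92184024-92184273 (minus strand) for Mrps25 and chr4:107066867-107067116 (minus strand) for Mrpl37.
Mrpl17: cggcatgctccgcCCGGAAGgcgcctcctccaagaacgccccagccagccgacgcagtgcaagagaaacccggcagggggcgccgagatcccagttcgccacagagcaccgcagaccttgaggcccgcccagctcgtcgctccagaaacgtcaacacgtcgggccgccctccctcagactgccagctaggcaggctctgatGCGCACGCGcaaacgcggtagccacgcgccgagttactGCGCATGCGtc
Mrpl30: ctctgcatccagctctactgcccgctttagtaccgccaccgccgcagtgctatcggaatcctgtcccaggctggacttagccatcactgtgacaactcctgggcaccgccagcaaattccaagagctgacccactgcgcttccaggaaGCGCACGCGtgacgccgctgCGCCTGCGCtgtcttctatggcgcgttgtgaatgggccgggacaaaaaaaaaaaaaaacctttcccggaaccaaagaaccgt
Mrps25: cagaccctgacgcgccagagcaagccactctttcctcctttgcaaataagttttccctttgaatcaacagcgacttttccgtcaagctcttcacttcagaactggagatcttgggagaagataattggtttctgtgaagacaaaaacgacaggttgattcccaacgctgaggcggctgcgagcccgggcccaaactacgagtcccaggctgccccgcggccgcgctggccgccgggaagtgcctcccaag
Mrpl37: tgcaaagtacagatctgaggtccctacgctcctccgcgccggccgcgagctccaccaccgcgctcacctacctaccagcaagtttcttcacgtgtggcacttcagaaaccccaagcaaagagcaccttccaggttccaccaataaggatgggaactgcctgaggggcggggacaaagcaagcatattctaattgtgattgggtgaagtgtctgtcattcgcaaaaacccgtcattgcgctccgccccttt
The Mrpl17 stretch held 1 ETS-family match and 2 NRF1 matches, and the Mrpl30 stretch held 2 NRF1 matches. No match lay in these letters of Mrps25 or Mrpl37. Past the start, outside the letters printed, Mrpl37 had 1 YY1 match (AAGATGGCG).

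RefSeq windows of 300 bases, reaching past the start, were at hand for 67 of the 76 members, 73 windows in all. The ETS-family letters were in 24 of them (32.9%), against 15.1% of the 13321 windows of the other genes tested and 8.86% of all 32851 windows. NRF1 letters were in 15 member windows (20.5%, against 11.7% and 6.25%), and YY1 letters in 10 (13.7%, against 4.23% and 2.38%). At least 1 of the motifs was in 41 member windows (56.2%), against 27.0% of the other genes tested. The median GC content was 58.3% in member windows and 60.0% in those of the other genes tested. Among the members called lower in caput than in cauda below, 35 of 61 windows (57.4%) held a motif, and among the other members 6 of 12. A match of letters is a description and not evidence of binding.

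The libraries held 18887128 to 24700717 reads in genes. A member that entered the tests had 9 to 9181 reads in a library, and the median member had 1359 to 1575. Replicate libraries differed by more than sampling noise, with chi-square per degree of freedom from 9.57 in corpus to 17.18 in caput. Markers of clear cells were present in each library, but their summed level fell along the duct. In RPKM (reads scaled to gene length and library size), it was 3830 and 3660 in caput. In corpus it was 1160 and 1360, against 418 and 532 in cauda. All 14 clear cell markers tested were called higher in caput than in cauda, among them Atp6v1b1, the gene whose promoter drives EGFP (178 and 160 RPKM in caput, 27.5 and 33.7 in corpus, 8.56 and 12.5 in cauda). Against corpus, 13 of the 14 were called higher in caput and 1 lower, and between corpus and cauda 13 were called higher in corpus. The untested clear cell marker, Slc26a4, was at 0 in every library but the second of caput. Summed principal cell markers went the other way, 5560 and 6790 RPKM in caput, 41800 and 49900 in corpus, 76400 and 72900 in cauda, mostly Crisp1, although 8 of those 15 genes were called higher in caput and 6 lower. Adam28 and Cst8, 2 of those principal cell genes, were at or near 0 in corpus and cauda. Summed basal cell markers were 68.4 and 94.5 RPKM in caput, 26.7 to 33.8 in corpus and 17.6 to 23.6 in cauda, and leukocyte markers 7.85 to 12.9 throughout. Summed stromal and vascular markers were 315 and 331 RPKM in caput, 78.6 and 72.9 in corpus, with 201 and 240 in cauda. Sperm transcripts were highest in the second caput library (336 RPKM, against 45.5 in the first) and 5.00 to 96.4 elsewhere. The part of these cell types in the differences below was not tested.

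Per unit of length, mitochondrial ribosomal protein transcripts were about as abundant in corpus as in cauda and lower in caput. Summed over the 76 members, the level was 2440 and 2490 RPKM in the caput libraries, 4750 and 4980 in corpus, then 4930 and 4880 in cauda, or 2470 ± 40.1, 4860 ± 165 and 4910 ± 38.5 (SD, n = 2 each). The caput libraries were below all others. In bulk libraries such as these, fewer cells of a type and less RNA per cell cannot be told apart. The lowest mean level was in caput for 64 of the 76 members, in corpus for 8 and in cauda for 4, and the highest was in cauda for 42, in corpus for 27 and in caput for 7.

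That order depends on how the libraries are put on 1 scale. The deposited RPKM values include a factor per library of 1.329 and 1.387 in the caput pair, 0.957 and 0.925 in the corpus pair, with 0.774 and 0.792 in the cauda pair, close to the TMM factors used in the tests below, which assume that most genes do not change. As a plain share of the reads in genes, the members took 0.506% and 0.544% in caput, 0.670% and 0.676% in corpus against 0.570% and 0.575% in cauda. On this scale too the caput libraries were lowest, but corpus was above cauda. Fold changes are therefore given with TMM scaling, and members are named as lower or higher under every scaling only where 4 scalings made the same call.

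Members differed widely in level within a library. The median tested member was at 25.9 and 25.7 RPKM in caput, 40.6 and 43.5 in corpus, with 42.6 and 43.4 in cauda. The 5 with the highest mean over all 6 libraries, Mrpl54, Mrpl52, Mrpl42, Mrps6 and Mrpl34, were all shorter than the median length of the members (1756 bases). They were not the top 5 in every region: Mrpl28 was above Mrpl34 in caput (means of 81.4 and 79.7 RPKM), and Mrps28 above it in corpus (198 and 171). The 5 highest members of a library took 23.7% to 29.4% of its summed level. Mrpl52 and Mrpl42, large-subunit proteins without a bacterial counterpart, reached 319 ± 15.6 and 276 ± 3.95 RPKM in cauda and 132 ± 12.7 and 124 ± 8.97 in caput (SD, n = 2). At the low end, Mrps36 was at 4.37 ± 0.0114 RPKM in cauda. Mrpl23, whose protein lies near the exit tunnel, had only 9 to 23 reads in a library and levels of 0.273 to 0.469 RPKM. Mrpl53 had 2 to 7 reads, 0.122 to 0.261 RPKM, and was the 1 member not tested. In the GENCODE annotation at hand, 88.0% of its exonic bases are shared with Gm42688, so its count is uncertain. Over the tested members, level and length were inversely related within each library, with Spearman's rho from -0.78 to -0.72 (n = 75 genes of 1 library, a description only). RPKM is the count divided by that same length, so the divisor alone gives such a relation where counts vary little with length. This also bears on the short length of the 5 highest members. The relation of read counts to length was not computed.

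**Figure D1:**
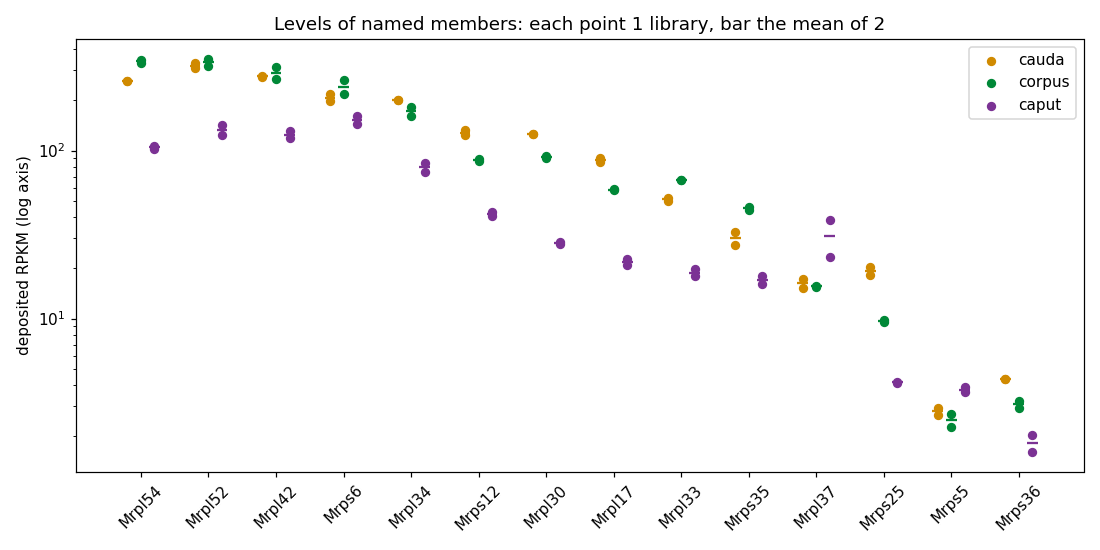
Deposited RPKM (log axis) of 14 named members in each library, with 1 colour per region; points are libraries and bars the mean of 2. The caput points lie highest for Mrpl37 and Mrps5 and lowest for the other 12 genes.

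Most members were lower in caput than in cauda. Of 75 tested, 62 were called lower, 2 higher and 11 neither. Their log2 fold changes had a median of -0.97 and ran from -2.27 to 0.87. Over all 15816 genes tested, 66.9% were called in this comparison, 33.0% lower and 33.9% higher, with a median of 0.04. The values of the caput and cauda libraries did not overlap for 72 of the 75 members, against 84.2% of all genes tested. A call here means that edgeR's quasi-likelihood test gave a p under 0.05 after Benjamini-Hochberg adjustment, made over the full set of tested genes.

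Mrps25, a small-subunit protein without a bacterial counterpart, had the largest difference. It was at 4.19 and 4.14 RPKM in caput, 9.56 and 9.86 in corpus, then 18.2 and 20.2 in cauda. Each step along the duct separated the libraries, and caput was 4.81-fold below cauda (log2 -2.27 ± 0.09 SE, edgeR adjusted p = 3.59e-08). In the GENCODE annotation at hand, 69.8% of its exonic bases also lie in exons of Nr2c2, and counting ignored strand, so reads of these 2 genes could not be told apart where they overlap. Mrpl30, a large-subunit protein with a bacterial counterpart, shares no exonic bases and was at 28.4 and 27.6 RPKM in caput, 90.3 and 92.9 in corpus against 126 and 125 in cauda. Its regions did not overlap, with caput 4.68-fold below cauda (log2 -2.23 ± 0.07 SE, edgeR adjusted p = 1.58e-08). Mrpl17, also a large-subunit protein of bacterial descent, was at 22.7 and 20.9 RPKM in caput, 58.0 and 58.7 in corpus, with 90.0 and 86.0 in cauda, 4.22-fold lower in caput than in cauda (log2 -2.08 ± 0.08 SE, edgeR adjusted p = 2.78e-08). These 2 genes carry the NRF1 letters printed above, and Mrps25, with a difference as large, carries none of the motifs in its stretch.

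In the large subunit, 39 of 48 tested members were called lower in caput than in cauda and 1 higher, with a median log2 fold change of -0.92. Members with a bacterial counterpart had 24 of 30 lower and none higher (median -1.01), and those without one 14 of 17 lower and 1 higher (median -0.75). Mrpl51 was at 14.9 and 15.4 RPKM in caput and 42.6 and 42.3 in cauda (log2 -1.55 ± 0.08 SE, edgeR adjusted p = 1.9e-07). Mrpl11, which forms the base of the stalk that recruits translation factors, was at 67.6 and 66.2 RPKM in caput, 124 and 132 in corpus, then 171 and 166 in cauda (caput against cauda log2 -1.40 ± 0.08 SE, edgeR adjusted p = 2.79e-07). Mrpl12, the stalk protein itself, was at 33.5 and 31.4 RPKM in caput, 75.6 and 71.7 in corpus against 63.8 and 61.0 in cauda (caput against cauda log2 -1.01 ± 0.08 SE, edgeR adjusted p = 3.09e-06). Both stalk genes were lowest in caput, but their highest region differed, cauda for Mrpl11 and corpus for Mrpl12. Under library totals the Mrpl12 call against cauda was lost (log2 -0.15, edgeR adjusted p = 0.121), whereas Mrpl11 stayed called lower. The Mrpl11 call between corpus and cauda was lost there too (log2 -0.13, edgeR adjusted p = 0.19). That of Mrpl12 did not hold when any corpus or cauda library was left out. Mrps30, placed in the large subunit, differed little, at 26.7 and 25.7 RPKM in caput and 33.0 and 31.5 in cauda (log2 -0.36 ± 0.10 SE, edgeR adjusted p = 0.00954). That call was lost without the first cauda library (adjusted p = 0.0661), and its sign turned under library totals (log2 0.50).

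The small subunit showed the same picture, with 22 of 26 members called lower in caput than in cauda and 1 higher (median -1.05). Counts were 13 of 15 lower and 1 higher among those with a bacterial counterpart (median -1.06) and 7 of 9 lower among those without (median -0.89). The 4 tested members not sorted by descent, Mrps18a, Mrps18b, Mrps28 and Mrps36, were all called lower. Mrps28 was at 61.1 and 55.7 RPKM in caput, 193 and 203 in corpus, with 193 and 186 in cauda (caput against cauda log2 -1.77 ± 0.08 SE, edgeR adjusted p = 8.84e-08). Mrps12, part of the decoding centre, was at 42.8 and 40.9 RPKM in caput, 89.3 and 86.5 in corpus, then 133 and 123 in cauda (caput against cauda log2 -1.68 ± 0.08 SE, edgeR adjusted p = 1.11e-07). Mrps28 thus changed in 1 step, between caput and corpus, and Mrps12 in both steps.

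The 3 genes that descend from the bacterial S18 gene differed in level, and their fold changes lay close together. Mrps18c was at 45.2 ± 1.68 RPKM in caput and 88.7 ± 2.33 in cauda, Mrps18a at 22.9 ± 0.824 and 45.6 ± 0.352, and Mrps18b at 5.95 ± 0.0836 and 12.1 ± 1.11 (SD, n = 2 each). With TMM scaling, caput was 2.05-fold, 2.08-fold and 2.12-fold below cauda, respectively, all called. Their deposited lengths differ (1194, 3522 and 2651 bases), and these folds keep the length trend, so their closeness holds for TMM scaling only as given here. The order of level, Mrps18c, Mrps18a, Mrps18b, held in each library. For Mrps18b, 30.5% of the exonic bases are shared with a predicted gene, Gm16279, which limits its count. Under library totals the Mrps18b and Mrps18c calls were lost (log2 -0.23, adjusted p = 0.157, and -0.18, adjusted p = 0.0776), whereas Mrps18a stayed called lower under all 4 scalings. Mrps36, the gene outside the ribosome, went from 1.60 and 2.02 RPKM in caput to 4.38 and 4.36 in cauda (log2 -1.33 ± 0.25 SE, edgeR adjusted p = 0.000984). Under library totals the Mrps36 call was lost (log2 -0.47, edgeR adjusted p = 0.11).

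Mrpl37 and Mrps5 were the 2 members called higher in caput. Mrpl37, a large-subunit protein added in mitochondria, was at 23.1 and 38.7 RPKM in caput, 15.4 and 15.7 in corpus against 15.2 and 17.2 in cauda. Both caput libraries were above the other 4, but they lay far apart from each other (30.9 ± 11.0, SD, n = 2). The log2 fold change against cauda was 0.87 ± 0.26 SE (edgeR adjusted p = 0.0317), and the call was lost without either corpus library (adjusted p = 0.0593 and 0.0619) or either cauda library (0.133 and 0.0829). Mrps5, which lines the channel by which messenger RNA enters, was at 3.64 and 3.91 RPKM in caput, 2.69 and 2.27 in corpus, with 2.94 and 2.68 in cauda (caput against cauda log2 0.36 ± 0.13 SE, edgeR adjusted p = 0.0381). Its call was lost without the second caput library (adjusted p = 0.143), the first cauda library (0.0708) or the second (0.189), in DESeq2 (0.0739), and its sign turned with the length trend removed (log2 -0.02). No member was called higher in caput than in cauda under all 4 scalings, and 27.1% of all genes were.

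**Figure D2:**
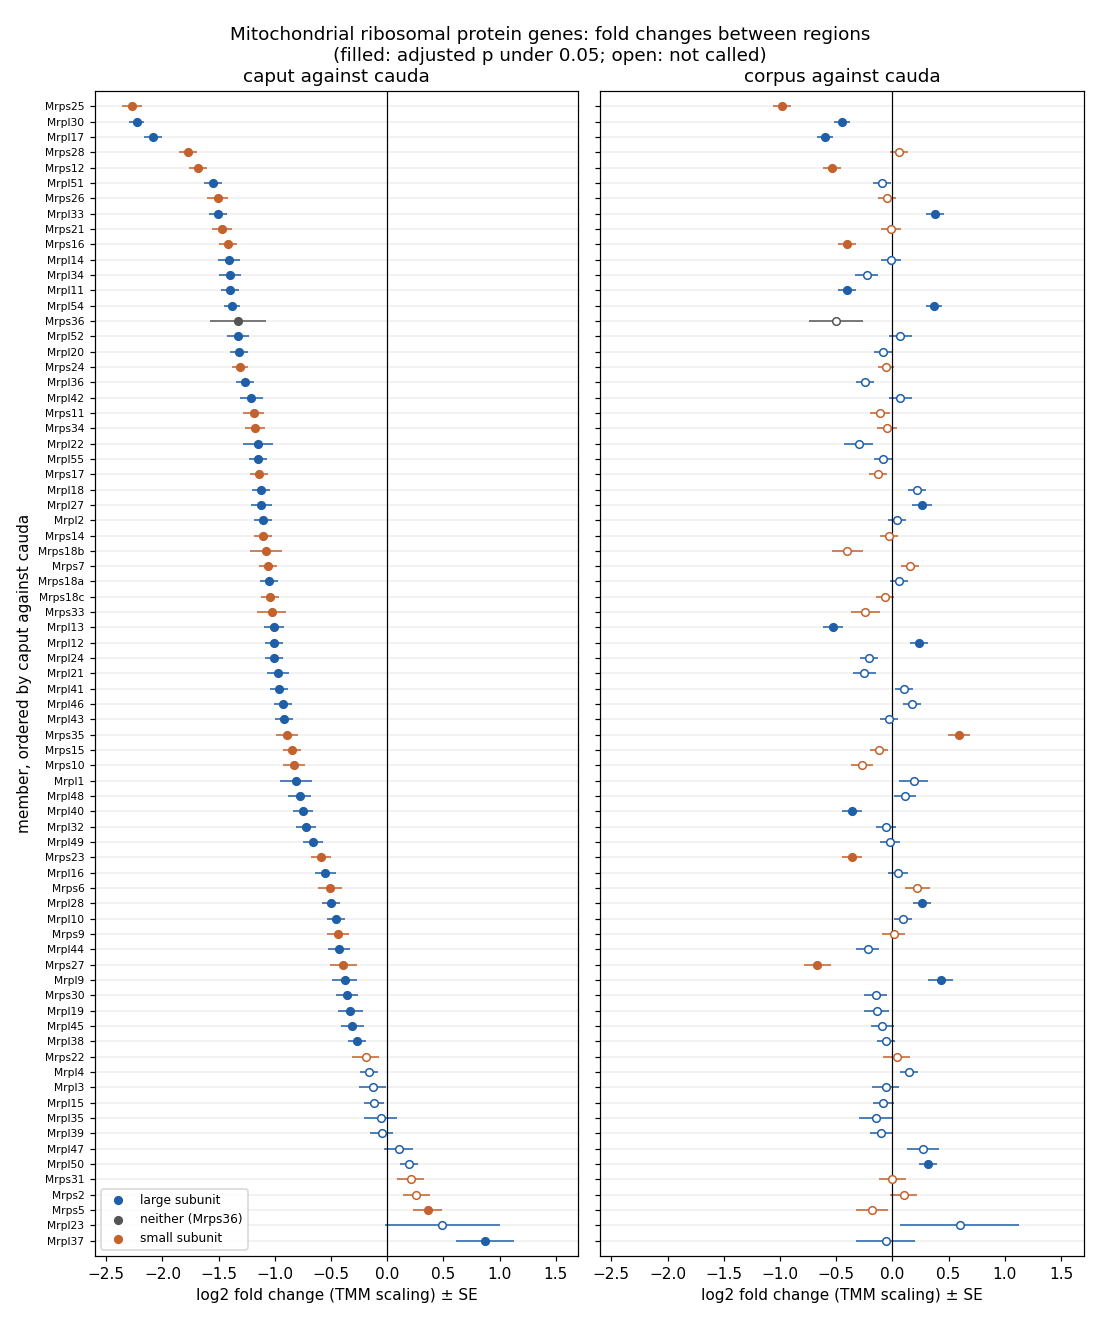
Log2 fold change with its SE (TMM scaling) of the 75 tested members, caput against cauda on the left and corpus against cauda on the right, ordered by the left panel; filled points were called at an adjusted p under 0.05. On the left 62 filled points lie below 0 and 2 above, and on the right 10 lie below and 8 above.

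Corpus clear cells resembled cauda more than caput in these genes. Against corpus, caput had 57 members called lower, 2 higher and 16 neither. The median log2 fold change was -0.85, from -1.89 to 0.93. In this comparison 65.0% of all genes were called, 31.8% lower and 33.2% higher, with a median of 0.04. Values of caput and corpus did not overlap for 70 of the 75, against 83.2% of all genes tested. The caput libraries serve in both comparisons, so the 2 sets of values are not independent.

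Mrpl33, a large-subunit protein of bacterial descent, had the largest difference from corpus. It was at 17.9 and 19.6 RPKM in caput, 66.7 and 67.0 in corpus, then 52.3 and 50.3 in cauda, so that caput was 3.71-fold below corpus (log2 -1.89 ± 0.08 SE, edgeR adjusted p = 1.02e-07). Next came Mrps28 (log2 -1.82 ± 0.08), Mrpl30 (-1.77 ± 0.07), Mrpl54 (-1.76 ± 0.07), Mrpl17 (-1.48 ± 0.07) and Mrps35 (-1.48 ± 0.10), all called. Mrpl54, the member with the highest mean in corpus, was at 107 and 102 RPKM in caput, 345 and 333 in corpus against 260 and 261 in cauda. The same 2 exceptions were called higher in caput than in corpus, Mrpl37 (log2 0.93 ± 0.26 SE, edgeR adjusted p = 0.0261) and Mrps5 (log2 0.55 ± 0.14 SE, edgeR adjusted p = 0.00596). Without the first or second corpus library the Mrpl37 call was lost (adjusted p = 0.109 and 0.103), and without the second the Mrps5 call (0.0587). The Mrps36 difference (log2 -0.83 ± 0.25 SE, edgeR adjusted p = 0.0145) was lost without the first caput library (adjusted p = 0.0685) or the second corpus library (0.077).

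Between corpus and cauda few members differed. Of the 75, 8 were called higher in corpus and 10 lower, and 57 neither, with a median log2 fold change of -0.06. Over all genes 35.4% were called, 17.3% higher and 18.0% lower, with a median of 0, so the members' share (24.0%) was below that of the tested genes. Values did not overlap for 49 of the 75, against 69.5% of all genes tested.

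The members called higher in corpus were Mrps35 (log2 0.59 ± 0.10 SE), Mrpl9 (0.43 ± 0.11), Mrpl33 (0.38 ± 0.08), Mrpl54 (0.37 ± 0.07), Mrpl50 (0.32 ± 0.08), Mrpl27 (0.26 ± 0.09), Mrpl28 (0.26 ± 0.08) and Mrpl12 (0.24 ± 0.08). Mrps35, a small-subunit protein without a bacterial counterpart, was at 44.4 and 46.1 RPKM in corpus against 32.8 and 27.3 in cauda and 17.9 and 16.0 in caput (corpus against cauda edgeR adjusted p = 0.00162). Its corpus libraries were above all others. The Mrps35, Mrpl33 and Mrpl54 calls held with each library left out in turn, and those of Mrpl12, Mrpl27, Mrpl28 and Mrpl50 were lost whichever of the 4 corpus and cauda libraries was left out, with adjusted p from 0.0544 to 0.239. For Mrpl9 the call was lost without the first corpus library (adjusted p = 0.0646), the second (0.0621) or the second cauda library (0.103). The count of members higher in corpus thus fell from 8 when any corpus or cauda library was left out. Such fits leave a region with only its other library, and the share of all genes called higher in corpus fell as well.

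Of the 10 lower in corpus than in cauda, the largest differences were those of Mrps25 (log2 -0.98 ± 0.08 SE), Mrps27 (-0.67 ± 0.12), Mrpl17 (-0.60 ± 0.07), Mrps12 (-0.54 ± 0.08), Mrpl13 (-0.53 ± 0.09) and Mrpl30 (-0.45 ± 0.07). Mrps27 was at 8.52 and 7.93 RPKM in corpus, below both the caput values of 10.6 and 10.3 and the cauda values of 13.2 and 13.0 (corpus against cauda edgeR adjusted p = 0.00204). Its caput and corpus libraries did not overlap, but that difference was not called (log2 0.29 ± 0.12 SE, edgeR adjusted p = 0.0583). The other 3 scalings called it higher in caput than in corpus: log2 0.88 under library totals (adjusted p = 0.000167), 0.58 without the most abundant genes (0.00202) and 0.59 with the length trend removed (0.00211). Mrpl13, the longest member, was at 5.48 and 5.28 RPKM in caput, 6.84 and 7.62 in corpus, with 10.6 and 10.1 in cauda (corpus against cauda edgeR adjusted p = 0.00148).

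Put together by the calls of the 2 neighbouring steps, 42 of the 75 members were lower in caput than in corpus with no call between corpus and cauda. Another 8 fell at each step from cauda to corpus to caput: Mrpl11, Mrpl13, Mrpl17, Mrpl30, Mrpl40, Mrps12, Mrps16 and Mrps25. Highest in corpus, above both ends, were 7: Mrpl9, Mrpl12, Mrpl27, Mrpl28, Mrpl33, Mrpl54 and Mrps35. Neither step was called for 13, among them Mrpl3, Mrpl15, Mrpl39, Mrps22 and Mrps31. Mrpl15 shows the flat pattern, at 11.5 and 12.0 RPKM in caput, 11.1 and 12.1 in corpus, then 12.3 and 12.1 in cauda. A missing call does not show equal levels: the Mrpl15 difference between caput and cauda was log2 -0.12 ± 0.09 SE (edgeR adjusted p = 0.269). These patterns were not counted over all genes, so whether they are more frequent among the members is not known. Of all genes, 31.8% were called lower in caput than in corpus and 33.2% higher. Between corpus and cauda, 17.3% were called higher in corpus and 18.0% lower.

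Gene length moved with these differences. The 76 members are short, with a median deposited length of 1756 bases against 3405 for all genes tested. The median fold change of all genes was lower in the shorter length classes. Among all genes of 55 to 1262 bases, the median log2 fold change of caput against cauda was -1.09 and 54.0% were called lower. For the 22 members in that length class the median was -1.18, and 21 were called lower. In the next class, 1262 to 1975 bases, the medians were -0.43 for all genes and -0.75 for the 19 members. At 1975 to 2682 bases they were -0.15 and -0.99 (12 members), and at 2682 to 3405 bases 0.05 and -0.64 (6 members). Above that, the medians were 0.23 and -0.10 at 3405 to 4278 bases (4 members, 1 called lower), 0.35 and -0.57 at 4280 to 5477 bases (6 members), and 0.35 and -0.83 at 5478 to 7473 bases (5 members). Mrpl13, alone in the last class, was at -1.01 against a median of 0.41. Across members, Spearman's rho between fold change and length was 0.31 (n = 75) and across all genes 0.28. The median of the shortest members thus lay near that of other genes of their length, and that of the longer ones further below.

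Long members varied. Mrps25 (6942 bases), Mrpl33 (5572 bases), Mrpl17 (4393 bases), Mrps26 (4355 bases) and Mrpl51 (3397 bases) had caput against cauda log2 fold changes from -2.27 to -1.51. Others over 3397 bases had small values, such as Mrpl15 (-0.12), Mrpl35 (-0.06) and Mrpl47 (0.10), none of them called, and Mrpl19 (-0.33, called lower). Mrpl37 and Mrps5, called higher in caput, are long as well (4672 and 6472 bases). With the length trend of all genes removed, 50 members were called lower in caput than in cauda and 6 higher, with a median of -0.37, where 33.2% of all genes were lower and 31.0% higher. Against corpus, 45 were then lower and 8 higher (median -0.38), where 31.6% of all genes were lower and 30.4% higher. Mrpl52, the shortest member at 407 bases, went from a called -1.33 to -0.03 (adjusted p = 0.812). Mrpl42 (660 bases) went from -1.21 to -0.08 (adjusted p = 0.462).

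**Figure D3:**
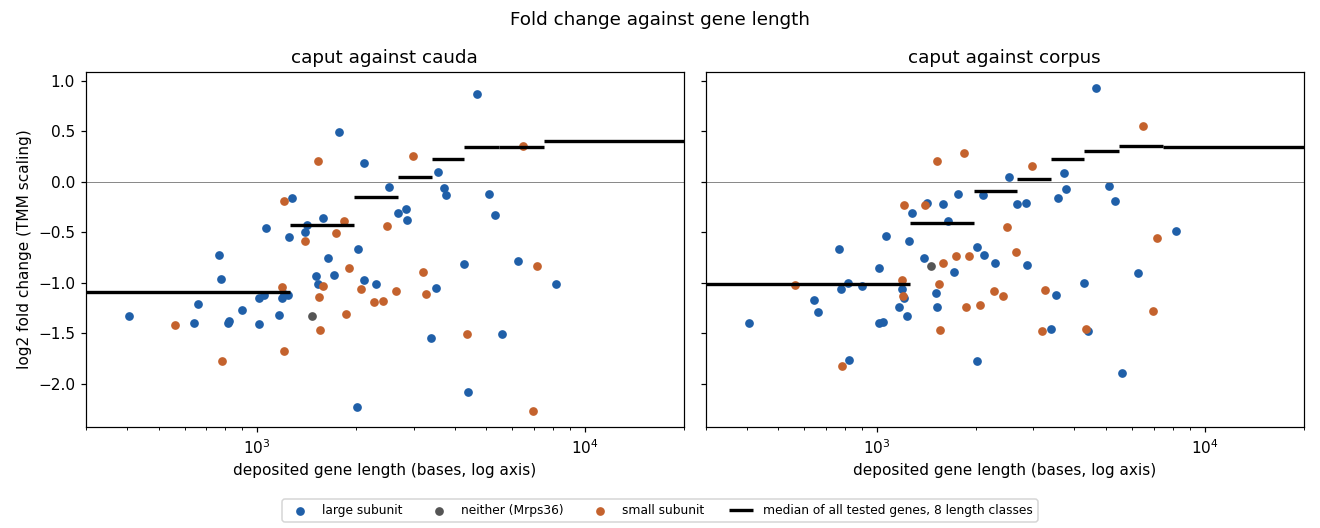
Log2 fold change (TMM scaling) of each tested member against the deposited gene length in bases (log axis), caput against cauda and caput against corpus; black bars are medians of all tested genes in 8 length classes. The bars climb from -1.09 to 0.41 on the left, and the median of the members lies below the bar in each class.

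Of the alternatives run, scaling moved the members' counts of calls the most. Under library totals, 26 members were called higher in caput than in cauda and 29 lower, with a median log2 fold change of -0.11. Of all genes tested, 60.1% were then called higher and 16.2% lower, and their median moved from 0.04 to 0.89, since this choice moves every gene by about the same amount (0.86). Leaving the 10 most abundant genes of each library out of the totals, a choice made after seeing the data, gave 10 higher and 49 lower (median -0.53, all genes 0.47, with 47.8% higher and 23.1% lower). Caput against corpus gave 19 higher and 37 lower under library totals (median -0.26), against 53.3% higher and 18.8% lower of all genes (median 0.63). Corpus against cauda gave 30 higher and 5 lower (median 0.21), against 32.6% and 11.0% of all genes (median 0.27).

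Some calls did not depend on scaling. Under TMM, library totals, totals without the most abundant genes, and the removed length trend alike, 26 members were called lower in caput than in cauda: Mrpl2, Mrpl11, Mrpl14, Mrpl17, Mrpl18, Mrpl20, Mrpl27, Mrpl30, Mrpl33, Mrpl34, Mrpl36, Mrpl51, Mrpl54, Mrpl55, Mrps7, Mrps11, Mrps12, Mrps14, Mrps17, Mrps18a, Mrps21, Mrps24, Mrps25, Mrps26, Mrps28 and Mrps34. The same held for 15.6% of all genes tested. For Mrps34, 77.8% of the exonic bases lie in exons of Mapk8ip3, so its count is uncertain. Against corpus, 31 of the 75 were lower in caput under all 4, and 17.5% of all genes. Between corpus and cauda, the 8 named above were higher in corpus under all 4, and Mrpl13, Mrpl17, Mrps12, Mrps25 and Mrps27 were lower, where the shares of all genes were 16.8% and 11.0%. Both kinds of totals move all genes up in this comparison, by 0.27 and 0.14. They thus favour calls of higher in corpus and are no test of those 8, and they work against calls of lower. The 2 counts cannot be compared.

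**Figure D4:**
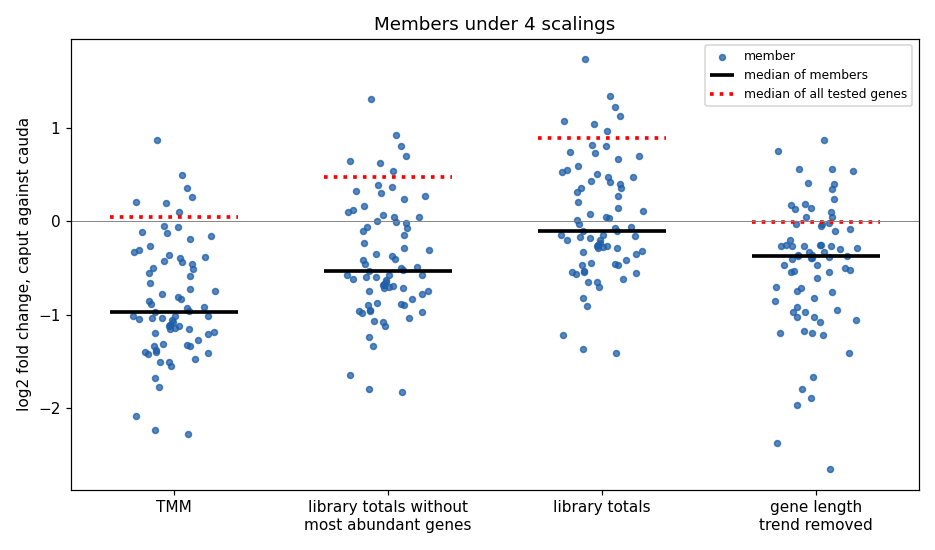
Log2 fold change of caput against cauda for each tested member (points) under 4 scalings, with the median of the members (black) and of all tested genes (dotted red). The members' median is at -0.97, -0.53, -0.11 and -0.37 from left to right; both kinds of totals move all genes by about 1 amount, so the distance between the medians changes little with them.

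Ratios within a library do not depend on its scale factor. The summed level of the members divided by that of the cytosolic ribosomal protein genes was 1.10 in each caput library, 0.648 and 0.663 in corpus against 0.510 and 0.517 in cauda. These sums hold uniquely placed reads only, and 33.11% to 38.59% of records had no unique position. How many of those belong to either set is not known, so the ratio is not one of true abundance. Of 82 cytosolic ribosomal protein genes, which are short as well, 73 (89.0%) were called lower in caput than in cauda, against 33.0% of all genes. Their median log2 fold change was -1.98. Against the nuclear genes of oxidative phosphorylation, whose complexes hold the products of mitochondrial translation, the ratio was 0.192 and 0.196 in caput, 0.162 and 0.163 in corpus, with 0.146 and 0.150 in cauda. Against the genes of mitochondrial import and chaperones it went the other way, 2.47 and 2.56 in caput, 3.02 and 3.03 in corpus, then 3.39 and 3.46 in cauda. Regions did not overlap in any of these 3 ratios. Such ratios of sums are weighted to abundant genes and keep the length trend. The median log2 fold changes of caput against cauda were -0.97 for the members, -1.08 for oxidative phosphorylation and -0.64 for import and chaperones. With the length trend removed they were -0.37, -0.42 and -0.28, and -1.30 for the cytosolic ribosomal protein genes. The median large-subunit member was 1.41 and 1.47 times the median small-subunit member in caput, 1.06 and 1.18 in corpus against 1.31 and 1.40 in cauda.

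Mitoribosomal proteins that carry other symbols went with the members. Of 7 measured, 6 were called lower in caput than in cauda and none higher, with a median of -1.06. Of all genes, 33.0% were called lower and 33.9% higher. They were Mrp63 (log2 -1.85 ± 0.09 SE), Chchd1 (-1.47 ± 0.08), Dap3 (-1.18 ± 0.08), Aurkaip1 (-1.06 ± 0.08), Gadd45gip1 (-0.93 ± 0.22) and Ict1 (-0.72 ± 0.07). Dap3, a GTP-binding protein of the small subunit, was at 14.9 and 13.0 RPKM in caput, 14.6 and 15.7 in corpus, with 30.3 and 30.0 in cauda, so its step lay between corpus and cauda. Ptcd3, which binds the small subunit, was at 11.4 and 13.0 RPKM in caput and 10.5 and 11.9 in cauda (log2 0.06 ± 0.13 SE, edgeR adjusted p = 0.694). Under library totals 4 of the 7 were called lower and 1, Ptcd3, higher (0.92, adjusted p = 0.000209), with a median of -0.20. Ict1 (0.14, adjusted p = 0.129) and Gadd45gip1 (-0.08, adjusted p = 0.769) then lost their calls.

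Genes that build and serve the mitochondrial ribosome were called in both directions. Of 24 tested assembly factors, 10 (41.7%) were called lower in caput than in cauda and 4 (16.7%) higher (median -0.01). Of all genes tested, 33.0% were called lower and 33.9% higher. Tfb1m, which methylates the small-subunit ribosomal RNA, was at 4.99 and 4.69 RPKM in caput, 9.05 and 8.24 in corpus, then 17.0 and 14.8 in cauda (caput against cauda log2 -1.78 ± 0.15 SE, edgeR adjusted p = 5.05e-06). Rbfa, a maturation factor of the small subunit, peaked in corpus at 109 and 110 RPKM, against 37.5 and 34.2 in caput and 59.2 and 55.2 in cauda (corpus against cauda log2 0.93 ± 0.08 SE, edgeR adjusted p = 2.57e-05). Mpv17l2 was at 73.1 and 69.2 RPKM in caput and 165 and 142 in cauda (log2 -1.17 ± 0.09 SE, edgeR adjusted p = 2.53e-06). Under library totals 16 of the 24 were called higher and 2 lower, where 60.1% of all genes were called higher.

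Translation factors gave 5 higher (35.7%) and 4 lower (28.6%) of 14 (median -0.11), near the shares of all genes (33.9% and 33.0%). Gfm1, an elongation factor, was higher in caput (9.40 and 8.93 RPKM against 4.46 and 5.25 in cauda, log2 0.85 ± 0.12 SE, edgeR adjusted p = 0.000148). Oxa1l, which inserts newly made proteins into the inner membrane, was lower (16.1 and 16.3 RPKM against 27.4 and 25.9, log2 -0.79 ± 0.09 SE, edgeR adjusted p = 3.37e-05). Tsfm, another elongation factor, was lower too (log2 -0.59 ± 0.10 SE). Among the mitochondrial aminoacyl-tRNA synthetases and their partners, 7 of 20 were higher and 7 lower (35.0% each, median 0.14), also near the shares of all genes. Iars2 was at log2 0.88 ± 0.11 SE, Ears2 at -1.06 ± 0.13 and Rars2 at -0.65 ± 0.10. Under library totals, where 60.1% of all genes were called higher, 10 of 14 translation factors and 15 of 20 synthetases were. Tsfm was then called in the opposite direction (log2 0.27, adjusted p = 0.0252), and the calls of Oxa1l (0.07, adjusted p = 0.476), Ears2 (-0.20, adjusted p = 0.165) and Rars2 (0.21, adjusted p = 0.0779) were lost.

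Regulators of mitochondrial transcription and biogenesis were mostly higher in caput, with 9 of 14 called higher than in cauda and 2 lower (median 0.66). These are 64.3% and 14.3%, against 33.9% and 33.0% of all genes. Ppargc1a, a coactivator of mitochondrial biogenesis, was at 6.01 and 6.12 RPKM in caput, 1.94 and 1.33 in corpus against 0.628 and 0.829 in cauda (caput against cauda log2 2.99 ± 0.20 SE, edgeR adjusted p = 1.33e-06). Its relative Ppargc1b was at 4.53 and 4.05 RPKM in caput and 0.767 and 0.720 in cauda (log2 2.46 ± 0.20 SE, edgeR adjusted p = 3.54e-06). Caput was far above the other regions for both. The genes of the factors whose motifs were searched were split: Nrf1 (log2 0.67 ± 0.12 SE), Gabpa (0.84 ± 0.14) and Gabpb1 (1.42 ± 0.16) were called higher in caput, and Yy1 lower (-0.71 ± 0.11). The Nrf1 call was lost with the length trend removed (0.22, adjusted p = 0.113), and the Yy1 call under library totals (0.14, adjusted p = 0.259). With the length trend removed the counts were 6 higher and 2 lower (median 0.25), where 31.0% of all genes were higher and 33.2% lower. Under library totals they were 12 higher and none lower, where 60.1% of all genes were higher and 16.2% lower.

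Import and chaperone genes resembled the members more, with 15 of 23 called lower in caput than in cauda and 3 higher (median -0.64). These are 65.2% and 13.0%, against 33.0% and 33.9% of all genes. Tomm7, a small subunit of the outer membrane translocase, was at 50.1 and 54.4 RPKM in caput and 188 in each cauda library (log2 -1.91 ± 0.08 SE, edgeR adjusted p = 5.39e-08). Timm13 (log2 -1.17 ± 0.08 SE) and Timm22 (-0.97 ± 0.08), of the inner membrane import machinery, were lower as well. Under library totals this group had 10 higher and 3 lower, against 60.1% and 16.2% of all genes, and the Timm22 call was lost (-0.11, adjusted p = 0.25). With the length trend removed it had 5 higher and 12 lower, against 31.0% and 33.2%.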

How the data were processed

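RNA of sorted clear cells was sequenced on a HiSeq2500 after isolation with a PicoRNA kit and library preparation with Clontech SMARTer v4, per the labels' protocols. The submitters' processing notes name STAR, HTSeq, edgeR and the build mm9. Tool versions and the annotation are not named there. The authors deposited 1 file of read counts per library, made without regard to strand per the names of those files, and 1 table of RPKM values for all 6. Deposited counts are whole numbers per gene and were tested unchanged. Summary rows without a gene stayed out of totals and tests: 6.67% to 9.48% of records were in no feature, 1.39% to 1.83% ambiguous and 33.11% to 38.59% without a unique position. The deposited RPKM values equal these counts divided by the deposited gene length (bases per gene) and by the library total times 1 factor per library. Reads carry no molecular identifiers.

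Counts were tested with edgeR 4.0.16 in R 4.3.3: filterByExpr by region, TMM factors, robust quasi-likelihood F tests, all 6 libraries, region as the only term, 3 residual degrees of freedom, two-sided, Benjamini-Hochberg adjustment over 15816 genes, called at 0.05. The SE is the log2 fold change divided by the root of F, an approximation. Levels are RPKM, as mean ± SD. Alternatives were DESeq2 1.42.0, its size factors in edgeR, library totals, no filter, only the 4 libraries compared, the length trend removed (lowess, span 0.3), the replicate number as a block, both together, and each library left out. Library totals without the union of the 10 most abundant genes of each library were added after seeing the data. On simulated counts for caput against cauda (15105 genes), the test recovered 33.3% of genes changed by a log2 of 0.5, 65.6% at 1 and 84.4% at 2. Few genes were changed there, whereas 66.9% were called in the data. The adjustment then differs, so these shares need not hold for the tests reported here.

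The members and lists were chosen with earlier results of these data known. Named members were, per comparison, the 6 largest called differences each way and those called against the majority, those called highest or lowest in corpus, the 5 most and 3 least abundant, any not tested, and Mrps18a, Mrps18b, Mrps18c, Mrps36, Mrps30, Mrpl11, Mrpl12 and Mrps12. Of each pathway list, up to 3 called genes with the smallest adjusted p were named; Yy1, Nrf1, Gabpa, Ptcd3 and Mrpl15 were added after their values were seen, as were the other patterns' members and the genes noted for length or exon overlap. Exon overlap was read from GENCODE M21 (GRCm38) for 75 members, and promoter windows and motifs from RefSeq (GRCm38.p6), another build than the authors'. Matches come from symbols in the deposited table.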

Additional observations from a re-analysis of the deposited data

How the results depend on the processing

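For caput against cauda the count of members called lower stayed within 1.5 times of the TMM count with DESeq2 size factors, DESeq2, no filter, the 4 libraries alone and the replicate block. Under library totals they were 26 higher and 29 lower with a median of -0.11, against 60.1% and 16.2% of all genes. Caput against corpus gave 19 and 37 (-0.26, all genes 53.3% and 18.8%), and corpus against cauda 30 and 5 (0.21, 32.6% and 11.0%). With the most abundant genes left out of the totals they were 10 and 49 (-0.53), against 47.8% and 23.1% of all genes. Caput against corpus gave 8 and 51 (-0.55, all genes 43.5% and 24.5%), and corpus against cauda 15 and 8 (0.07, 23.8% and 13.7%). With the length trend removed they were 6 and 50 (-0.37), against 31.0% and 33.2% of all genes. Caput against corpus gave 8 and 45 (-0.38, all genes 30.4% and 31.6%), and corpus against cauda 10 and 11 (-0.01, 17.6% and 18.0%). With the replicate block as well they were 6 and 51 (-0.37, all genes 31.7% and 34%). Caput against corpus was then 9 and 45 (-0.38, 31.1% and 32.6%), and corpus against cauda 13 and 12 (-0.01, 18.9% and 19.3%). Without a filter, 3 members were higher in caput than in cauda and 1 higher than in corpus, with medians of -0.90 and -0.78. The shares of all genes were 23% and 22.8%. DESeq2 called 1 member higher in caput than in cauda, against 31.1% of all genes. The fits of only 4 libraries called 1 higher than in cauda and 1 higher than in corpus, against 34.2% and 33.5%. Leaving out 1 library at a time gave medians of -0.98 to -0.96 for caput against cauda and -0.91 to -0.80 for caput against corpus. For corpus against cauda they were -0.08 to -0.03.

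Under library totals the tested members above 0 went from 7 to 33 for caput against cauda, from 7 to 25 for caput against corpus and from 28 to 61 for corpus against cauda. Among the named members called with TMM scaling or in the alternative, the following changed sign. Changes between values that were both uncalled are left out, and no named member met this rule for corpus against cauda. For caput against cauda, library totals gave 0.36 for Mrpl28, 0.47 for Mrpl9, 0.47 for Mrps27, 0.50 for Mrps30 and 0.35 for Mrps6. Totals without the most abundant genes gave 0.05 for Mrpl9, 0.05 for Mrps27 and 0.07 for Mrps30. The removed length trend gave 0.13 for Mrpl28, 0.14 for Mrps30 and -0.02 for Mrps5, and the same values with the replicate block. For caput against corpus, library totals gave 0.10 for Mrpl13, 0.46 for Mrpl50 and 0.37 for Mrps30. Both kinds of totals move every gene of a comparison by about 1 amount (0.86 and 0.43 for caput against cauda, 0.59 for caput against corpus under library totals), and removing the trend moves each gene by an amount set by its length.

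The replicate numbers give no stated pairing, and same-numbered libraries deviated together only weakly (correlation of deviations 0.187, 0.162 and 0.134 over 15816 genes). With the replicate number as a block, caput against cauda had 2 members higher and 62 lower (all genes 34.8% and 33.8%). Caput against corpus had 2 and 58 (34.4% and 32.9%), and corpus against cauda 10 and 14 (19% and 19.5%). Among the named members, Mrps6, Mrps18b and Mrpl34 gained a call between corpus and cauda, Mrps6 higher in corpus and the others lower. Low counts limited Mrpl23, whose 9 to 23 reads gave SEs of 0.49 to 0.53, and Mrpl53, which was not tested. A pseudogene row, Mrpl23-ps1, held 20 to 31 reads in a library. In the GENCODE annotation, 88.0% of the exonic bases of Mrpl53 are shared with another gene, Gm42688. Whether low expression or the counting gave these low counts was not tested.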
